A study of Mus musculus with 2 samples.

Results

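H/ACA small nucleolar RNAs (snoRNAs) and small Cajal body RNAs (scaRNAs) were read as short fragments in the small RNA of fetal mouse testis. The genes were those of the GENCODE mouse M21 annotation with a name beginning Snora or Scarna, or of the type scaRNA, and a fragment was a sequenced RNA of 16-48 nt lying in the sense direction, with no mismatch, inside one of their transcripts. They came to 88 gene names of the 55341 in the annotation: 40 Snora, 9 Scarna and 39 others of the type scaRNA, Mir1839 among them. Of the 88, 53 had at least 1 read, 24 of these had 1 to 9 reads in both libraries together, and 35 had none. Of the 35 without reads, 29 were predicted genes with a Gm name, and the others were Snora15, Snora17, Snora28, Snora33, Snora35 and Snora43.

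One library came from wild-type testes (WT) and one from testes without Hsp90α, the inducible cytosolic form of the HSP90 chaperone, encoded by Hsp90aa1 (KO). Each was made from 20 pooled testes of C57BL/6 fetuses at embryonic day 16.5, so each genotype had 1 library and no difference between them has a replicate check. A pool of whole testes mixes fetal germ cells with the somatic cells of the gonad, and fewer cells of a type cannot be told apart from less RNA per cell. Hsp90aa1 itself had 2 reads in WT and 10 in KO. Fragments of an mRNA in a small RNA library do not check the knockout.

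H/ACA snoRNAs guide the conversion of chosen uridines of rRNA and snRNA to pseudouridine. They fold into a pair of hairpins joined by the H box and closed by the ACA box, which stands near the 3′ end, and they carry the proteins dyskerin (Dkc1), Nop10, Nhp2 and Gar1. scaRNAs do the same kind of work on snRNAs in the Cajal body; some are of the H/ACA type, some of the C/D type that guides ribose methylation and keeps its C and D boxes at its ends, and some join both types in one molecule. Most are cut out of introns of host genes, and a few H/ACA hairpins are also annotated as miRNA precursors. HSP90 and its R2TP co-chaperone are known for their part in assembling snoRNPs.

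The ends of the annotated transcripts divided the genes. ACA followed by 2 to 4 bases at the 3′ end was found in 69 of the 88 gene names, and 43 of these had reads. A C box (TGATGA) in the first 20 bases together with a D box (CTGA) in the last 14 was found in 6, and all 6 had reads: Scarna17, Gm25395, Scarna9, Scarna10, Scarna6 and Gm22009. Neither pattern was found in 13, of which 4 had reads. This division was made after the reads had been seen. C and D boxes at the ends do not tell a scaRNA of the C/D type from one that joins both types. Searched on the sense strand alone, ACA with 2 to 4 bases after it closed 95.2% of the Snora transcripts, 66.0% of the other transcripts of the set, 2.04% of the C/D box snoRNA (Snord) transcripts and 9.13% of miRNA hairpins. The pair of C and D boxes was in 69.4% of Snord transcripts and in none of the 42 Snora transcripts.

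The sequences below are those on which the results turn. The first set shows the leading 20-23-nt fragments in the orientation of the transcript, 5′ to 3′, with bases 2 to 8, the seed of a miRNA, in capitals. T stands for U.
Mir1839, bases 65-87: aAGGTAGAtagaacaggtcttgt
Mir1839, bases 65-86: aAGGTAGAtagaacaggtcttg
Mir1839, bases 104-124: aGACCTACttatctaccaaca
Scarna3a, bases 79-99: cATGGAGGtctctgtctgact
Scarna3b, bases 78-98: tATGGAGGtctctgtctgact
Scarna3a, bases 117-137: tCCGATCGttcccctccatac
Snora19, bases 108-129: tTCTGCCAgtctccttcagaca
Snora36b, bases 69-90: cTGGCTGGggaaaatgactgga
Snora36b, bases 106-126: tATTCATTtactccccagcct
Snora41, bases 108-128: gGAGGATTatgtgtgacagac
Snora16a, bases 117-137: aCATTGTGgaaaatgacagct
Snora7a, bases 115-136: tGATTGGAagacactctgcaac

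The second set shows whole transcripts with the leading fragment in capitals, for 3 kinds of pattern: one arm of the 3′ hairpin in Mir1839 (chr7:81529855-81529981, plus strand, GRCm38), a fragment that stops in the ACA box in Snora41 (chr1:63179004-63179135, plus strand, GRCm38), and one that runs to the last base in Snora52 (chr7:141448803-141448939, plus strand, GRCm38).
Mir1839: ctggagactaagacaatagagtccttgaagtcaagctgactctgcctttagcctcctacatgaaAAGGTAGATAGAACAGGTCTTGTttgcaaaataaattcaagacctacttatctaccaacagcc
Snora41: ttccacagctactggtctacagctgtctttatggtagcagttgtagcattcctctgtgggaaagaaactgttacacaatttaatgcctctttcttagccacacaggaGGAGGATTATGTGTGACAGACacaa
Snora52: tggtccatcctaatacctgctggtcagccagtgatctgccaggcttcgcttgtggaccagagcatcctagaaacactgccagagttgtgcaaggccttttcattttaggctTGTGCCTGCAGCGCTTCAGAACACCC

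The third set shows the leading 5′ fragments of scaRNAs with C and D boxes at their ends, with TGATGA and CTGA in capitals.
Gm25395, bases 2-30: gtcagTGATGAttggtaaaaggtCTGAtt
Scarna9, bases 2-31: agcaaTGATGAaaaggttttagtaCTGAat
Scarna6, bases 1-29: ggtcagTGATGAatagtaaaaggtCTGAc

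Fragments of these genes were rare. WT held 1350 of them in 6409305 reads, 0.0211% (95% Wilson interval 0.0200 to 0.0222), and KO held 1098 in 5589326 reads, 0.0196% (0.0185 to 0.0208). A gene with no read in WT could make up to 4.68e-05% of that library, and one with no read in KO up to 5.37e-05%, at 3 reads. Intervals here cover counting error only. Copies made in PCR are not independent molecules, so the intervals can be too narrow even for that error. The reads were of 292 distinct sequences in WT and 274 in KO, 136 of them in both. Levels were scaled to the miRNA reads of the same library, 2523084 in WT and 2561491 in KO, which gave 535 fragments per 1000000 miRNA reads in WT and 429 in KO. The KO/WT ratio was 0.801 (95% exact conditional interval 0.739 to 0.868). A handful of genes carried the set: Mir1839, Scarna17, Scarna3a and Scarna3b held 60.2% of the WT and 57.0% of the KO fragments. This ranking leaves out sequences that run past an annotated end. With them Scarna6 would have 311 reads in WT and 144 in KO, more than Scarna3a or Scarna3b.

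Over all reads, lengths differed by the kind of transcript end. In transcripts with the ACA end, 77.4% of the 831 WT reads and 78.6% of the 740 KO reads were of 20-23 nt. Outside annotated miRNA hairpins, they had 97 WT and 116 KO reads of 20-23 nt, beside 86 and 90 of 24-33 nt. There the 20-23-nt range held a minority of the reads of these transcripts. In those with C/D ends, 480 reads in WT and 325 in KO, the 24-33-nt range held 40.6% in WT and 43.1% in KO, and the 34-48-nt range 56.9% and 51.7%. Scarna17 alone made 269 of the 273 WT reads and 162 of the 168 KO reads of that last range. Sequences running past an annotated end are left out, among them 263 WT and 113 KO reads of a 32-nt Scarna6 sequence. With these, the 24-33-nt range would hold more C/D-ended reads than the 34-48-nt range in both libraries. Over all the genes, 20-23-nt fragments numbered 663 in WT (49.1% of reads, Wilson interval 46.5 to 51.8) and 602 in KO (54.8%, 51.9 to 57.7). The longest fragment was of 45 nt.

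**Figure D1:**
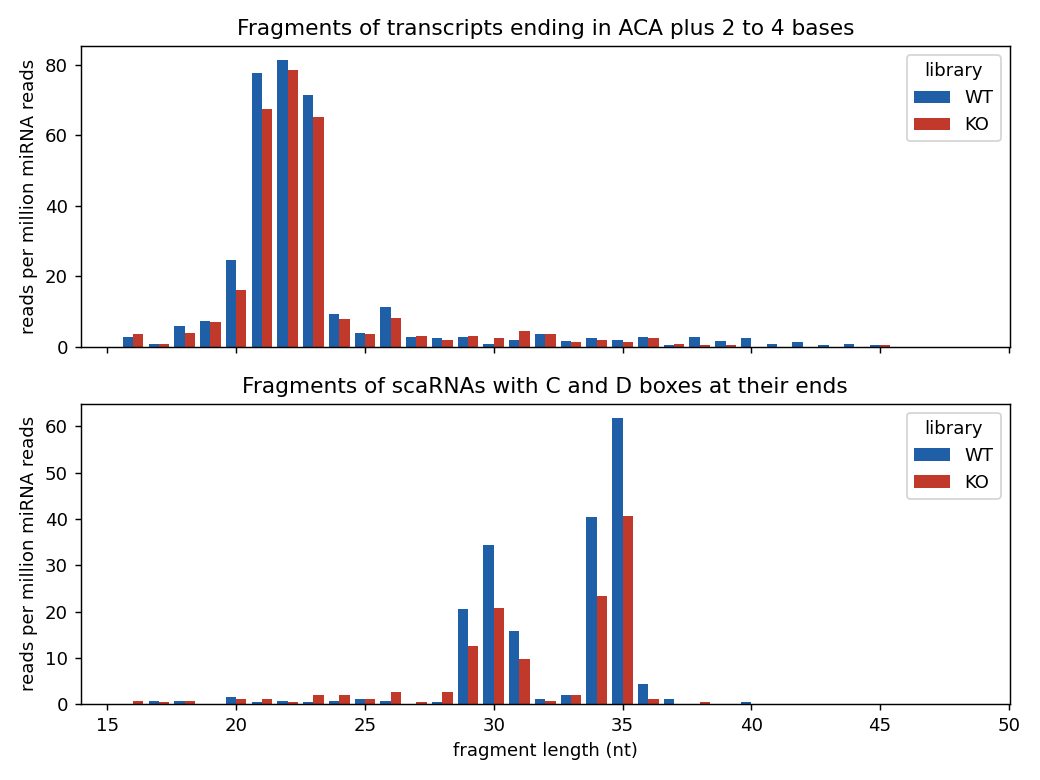
Fragments of each length (horizontal axis, nt) per 1000000 miRNA reads (vertical axis) in the WT and KO libraries, above for genes whose transcript ends in ACA plus 2 to 4 bases and below for the scaRNAs with C and D boxes at their ends. The ACA-ended genes gave a peak at 21-23 nt and the C/D-ended ones peaks at 29-31 and 34-35 nt, in both libraries. Sequences running past an annotated end are not counted, such as a 32-nt sequence of Scarna6 with 263 WT and 113 KO reads.

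The position of a fragment was called 5′ when it began within 2 nt of the annotated start of the transcript, 3′ when it stopped within 2 nt of the annotated end, and inner otherwise. Inner fragments made 51.0% of reads in WT and 52.3% in KO, 3′ fragments 34.7% and 36.1%, and 5′ fragments 14.3% and 11.7%. ACA-ended genes gave mostly inner fragments, 75.7% in WT and 71.4% in KO, and few from the 5′ end, 5.05% and 4.46%. Outside annotated miRNA hairpins this order changed. Most reads of ACA-ended genes there were 3′ fragments in both libraries, followed by inner and then 5′ ones. C/D-ended scaRNAs gave 62.7% of their reads in WT and 64.3% in KO from the 3′ end, and 29.4% and 26.2% from the 5′ end. Scarna17 alone held 272 of the 301 3′ reads in WT and 176 of the 209 in KO. Gm25395 and Scarna9 gave mostly 5′ fragments, Scarna10 mostly inner ones, and Scarna6 and Gm22009 mostly 3′ ones.

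The fragments of ACA-ended genes came mostly from one side of the molecule. In WT 93.1% of their reads (91.2 to 94.7) and in KO 94.9% (93.0 to 96.2) had their midpoint past the middle of the transcript, on the side of the 3′ hairpin. Leaving out reads inside annotated miRNA hairpins, the share was 79.2% (73.8 to 83.7) in WT and 85.8% (81.0 to 89.6) in KO.

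Annotated miRNA precursors overlapped 10 of the genes. Reads that lay inside any annotated miRNA hairpin numbered 576 in WT (42.7%) and 487 in KO (44.4%), which counts 2 WT and 1 KO reads of Snora3 and 1 KO read of Gm22009 that matched a hairpin overlapping none of the 10. They made 82.4% of the 20-23-nt reads in WT and 77.6% in KO. Mir1839 alone, annotated both as a scaRNA and as a miRNA, in the lncRNA gene 2900076A07Rik, had 347 reads in WT and 296 in KO, of which 333 and 286 were of 20-23 nt. All but 1 KO read lay in the hairpin. The 5′ arm of that hairpin, which RefSeq lists as mmu-miR-1839-5p, had 300 reads in WT and 245 in KO, and 68.1% of them began at the annotated first base, base 65 of the transcript. The sequence with most reads was 1 base longer than the annotated one, with 116 reads in WT and 96 in KO. The other arm, for which the RefSeq table used here gave no mature sequence, had 47 reads in WT and 50 in KO, and 93 of these 97 began at base 104. In the minimum-energy fold, with the leading read of each arm, the 3′ arm extended 2 nt and the 5′ arm 3 nt past the base paired with the other arm's first base.

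Scarna3a (chr1:159340283-159340422, plus strand, GRCm38, in an intron of Cop1) and Scarna3b (chr12:80391613-80391751, minus strand, GRCm38, in an intron of Dcaf5) hold the precursors of miR-1843b and miR-1843a. They are near copies, and 49 WT and 38 KO reads matched both. Scarna3a had 135 reads in WT and 102 in KO with the shared ones, and Scarna3b 100 and 86. Almost all were of 20-23 nt, 126 and 97 in Scarna3a and 96 and 84 in Scarna3b. The leading fragments of the pair differ at their first base and have the same seed. For Scarna3a the leading fragment, with 31 reads in WT and 24 in KO, began 1 base before the mature miR-1843b-5p of RefSeq, which starts at base 80. For Scarna3b the leading fragment, with 24 and 25 reads, was the mature miR-1843a-5p itself. On the 3′ arm of Scarna3a, with 26 reads in WT and 14 in KO, 26 of the 40 began at base 117, 1 base before the annotated start, and none at the annotated one. With the leading read of each arm, the overhangs in the predicted fold were 1 and 2 nt in Scarna3a and 2 and 2 nt in Scarna3b.

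The other miRNA hosts had fewer reads. Snora19 (chr19:60774330-60774461, minus strand, GRCm38, in an intron of Eif3a) had 22 reads in WT and 26 in KO, 21 and 24 of them of 20-23 nt. They came from the 3′ arm, miR-3084-3p in RefSeq, with 21 and 26 reads, and the 5′ arm had none. Snora36b (chr1:185242907-185243038, plus strand, GRCm38, in an intron of Rab3gap2), the host of miR-664, had 18 and 13 reads, with 7 in WT and 5 in KO from the 5′ arm and 10 and 8 from the 3′ arm. All 18 reads of its 3′ arm had the annotated 5′ end, while in the predicted fold the ends of its leading pair were set back, by -1 and -2 nt. Snora34 with miR-1291 had 3 and 1 reads and Gm26083 with miR-6516 had 4 and 1, while in Scarna13 none of its 4 and 3 reads lay inside the miR-3069 hairpin. The hairpins Gm49347 and Gm49346, over Snora74a and Snora81, had 1 read in KO and none.

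**Figure D2:**
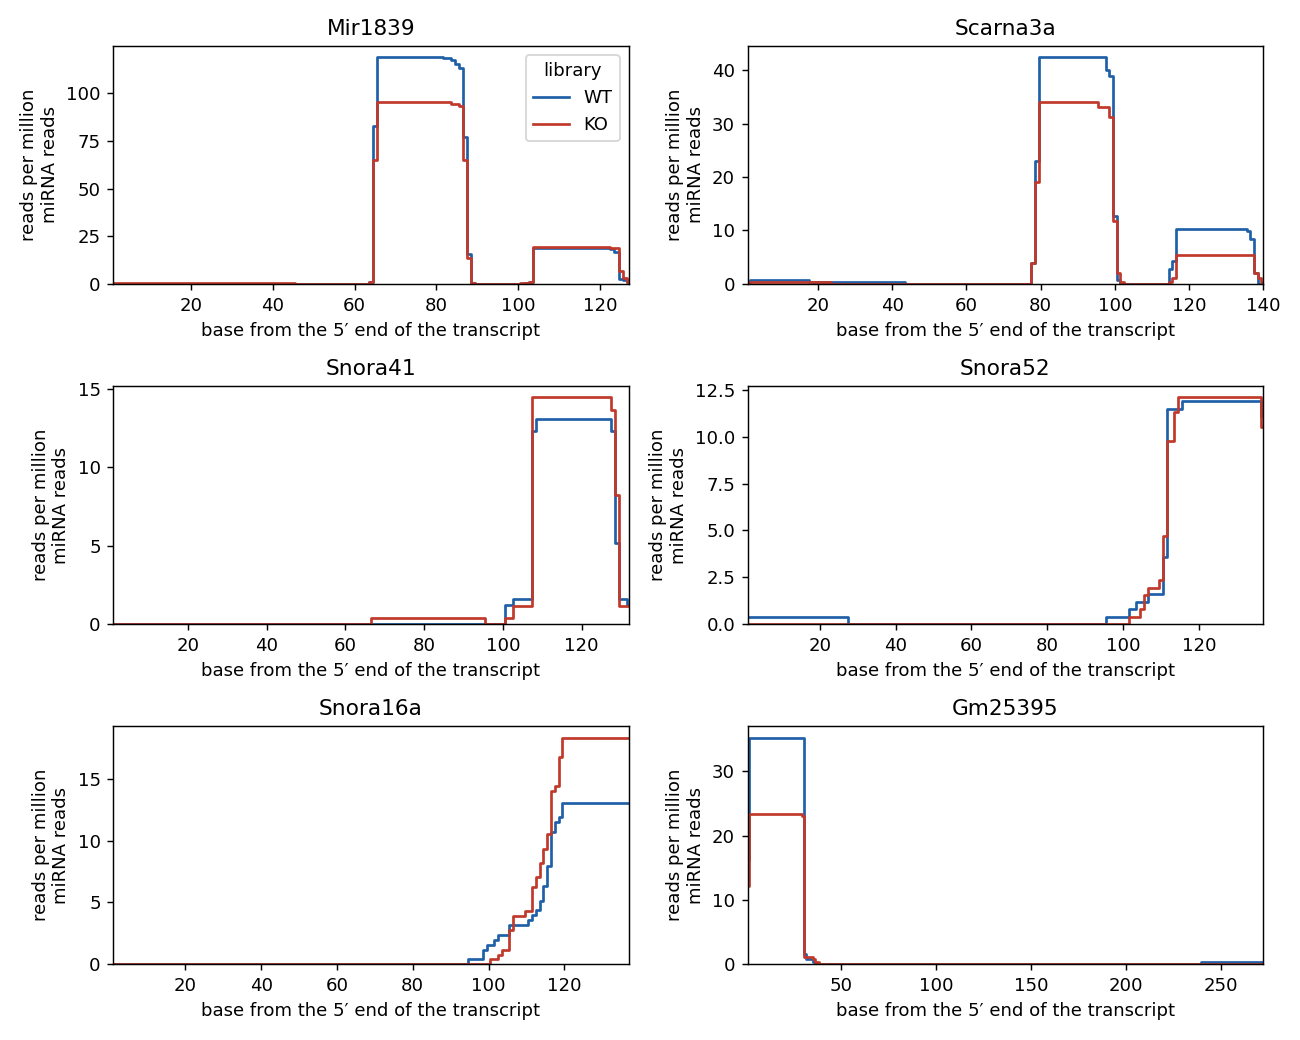
Reads over each base of 6 transcripts (horizontal axis, base from the 5′ end), per 1000000 miRNA reads (vertical axis), in WT and KO; reads that also match another gene are included. Mir1839 and Scarna3a show the 2 arms of a hairpin, Snora41 a single block that stops short of the end, Snora52 and Snora16a reads that run to the last bases, and Gm25395 a block at its 5′ end.

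Reads of 20-23 nt also came from H/ACA genes with no annotated miRNA. Outside miRNA hairpins the ACA-ended genes had 97 of them in WT and 116 in KO, and all the genes together, the C/D-ended scaRNAs included, 117 and 135. Snora41, in an intron of the translation factor gene Eef1b2, had 33 reads in WT and 38 in KO, and 28 and 34 of these were of 20-23 nt. They shared one 5′ end, base 108, in 85.9% of the gene's reads, and mostly stopped at base 128 or 129, inside or at the last base of the ACA box. In its predicted fold 88.9% of the bases in these reads were paired, against 66.7% of the bases of the whole transcript. For Mir1839 the same shares were 74.9% and 59.8%, and for Scarna3b 80.1% and 57.6%. Snora16a, inside Snhg12, differed from them. Its 33 WT and 47 KO reads all reached the last base of the transcript, 5′ ends were scattered, with the leading one, base 117, in 20.0% of reads, and 51.6% of the bases in its 20-23-nt reads were paired, against 61.3% of the transcript. Snora7a, in the ribosomal protein gene Rpl32, had 13 and 15 reads, 12 in each library of 20-23 nt, and 60.7% of all its reads began at base 115. Snora44, also in Snhg12, had 25 and 19 reads in separate blocks, one from base 1 to about base 36 and one from base 64.

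The 3′ ends of ACA-ended genes depended on length. Outside miRNA hairpins, 174 reads of 20-23 nt in both libraries together stopped within the last 8 bases, and 93 of them (53.4%) stopped at or before the last base of the ACA box. Of 137 such reads of 24-33 nt 1 did (0.730%), and of 49 of 34-48 nt none did. The 93 reads came from 4 genes, 62 of them from Snora41 and 23 from Snora7a, so that without Snora41 it was 31 of 112. The reads that stopped past the box came from more genes, 14 at 20-23 nt and 18 at 24-33 nt. Among these was Snora52, inside the ribosomal protein gene Rplp2, with 31 reads in each library, 27 in each of 24-33 nt. Of all its reads 88.7% ended at its last base.

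**Figure D3:**
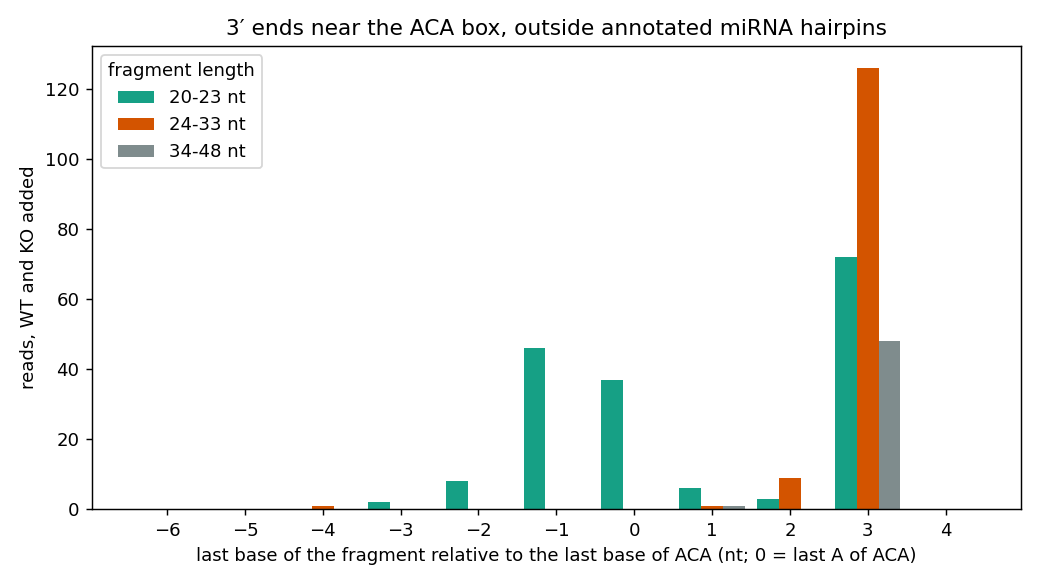
Distance of the last base of a fragment from the last base of the ACA box (horizontal axis, nt) against reads of WT and KO added (vertical axis), for ACA-ended genes outside miRNA hairpins, by fragment length. Reads of 20-23 nt stand at -1 and 0 (46 and 37 reads) and at +3 (72 reads), and longer ones nearly all at +3 (126 reads of 24-33 nt and 48 of 34-48 nt).

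The first base also differed between lengths. Of 20-23-nt fragments 65.9% in WT and 61.0% in KO began with A, and 15.1% and 18.3% with T (U in the RNA), whereas 20-23-nt reads of miRNA hairpins began with T in 72.0% and 70.6%. Single genes weighed on both sets. Without Mir1839, A made 31.8% of the fragments in WT and 25.9% in KO and T 30.3% and 34.5%, and without Mir10b, T made 57.4% and 55.4% of the miRNA hairpin reads. Of the 24-33-nt fragments 40.4% and 35.7% began with G.

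The C/D-ended scaRNAs held most of the long fragments. Scarna17 had 280 reads in WT and 180 in KO, of which 269 and 162 were of 34-48 nt and 272 and 176 lay at the 3′ end. A single 3′ end, base 78 of its 79, closed 93.7% of its reads. Gm25395 (chr1:87776938-87777209, plus strand, GRCm38) and Scarna6 (chr1:87784556-87784820, plus strand, GRCm38) lie in introns of the same gene, Atg16l1, which serves in autophagy. Gm25395 had 90 reads in WT and 60 in KO, 89 and 60 of them at the 5′ end, and Scarna6 28 and 19, most of them at the 3′ end (20 and 13). Scarna9, in an intron of Cep295, had 38 and 19 reads, of which 37 and 17 lay at the 5′ end. Scarna10 (U85), a guide for U5 snRNA that joins a C/D and an H/ACA part, had 43 and 38 reads, mostly inner (34 and 25), and 70.4% of them stopped at base 208 of 325. Gm22009 had 1 read in WT and 9 in KO.

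The 5′ fragments of Gm25395 and Scarna9 mostly stopped at one place. Over the C/D-ended scaRNAs, 223 reads of at least 24 nt began in the first 3 bases. Of these, 198 (88.8%) stopped 2 bases after a CTGA, the letters of a D or D′ box. Among 51 Snord genes 79.6% of 6224 such reads did. Gm25395, with 141 of 149 reads, and Scarna9, with 47 of 54, held most of these. The others had few such reads: it was 6 of 12 in Scarna6, with the other 6 stopping 1 base after CTGA, 4 of 6 in Scarna17 and none of 2 in Scarna10. A match to 4 letters is a description and not a mapped box.

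The KO/WT ratio of these fragments was lowest at the longest lengths. Per miRNA read it was 0.949 (0.635 to 1.41) at 16-19 nt with 54 reads in WT and 52 in KO, 0.894 (0.800 to 1.0002) at 20-23 nt, 0.812 (0.684 to 0.964) at 24-33 nt with 302 and 249 reads, and 0.580 (0.484 to 0.695) at 34-48 nt with 331 and 195 reads. The ratio at 20-23 nt was 1.54 times that at 34-48 nt (1.24 to 1.91). Most reads of 34-48 nt, 269 in WT and 162 in KO, were of the single gene Scarna17. Without Scarna17 the ratio at 34-48 nt was 0.524 (0.333 to 0.812), from 62 reads in WT and 33 in KO, and the ratio over all lengths was 0.845.

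Other RNA classes also had their lowest ratio at 34-48 nt. It was 0.308 for C/D box snoRNAs, 0.401 for snRNAs and 0.291 for reads inside miRNA hairpins. For snoRNA genes under other names it was 0.169, and for the misc_RNA and related types 0.222. Over all lengths these last classes had ratios of 0.463 and 0.382. The H/ACA and scaRNA ratio at that length was 1.88 times (1.55 to 2.28) the C/D box one, at 24-33 nt 1.02 times (0.855 to 1.21), and at 20-23 nt 0.855 times (0.733 to 0.997). Over all lengths C/D box snoRNAs had a ratio of 0.669 (0.651 to 0.687), and the H/ACA and scaRNA ratio was 1.20 times as high (1.10 to 1.30). Whether RNA length or quality differed between the pools was not tested.

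**Figure D4:**
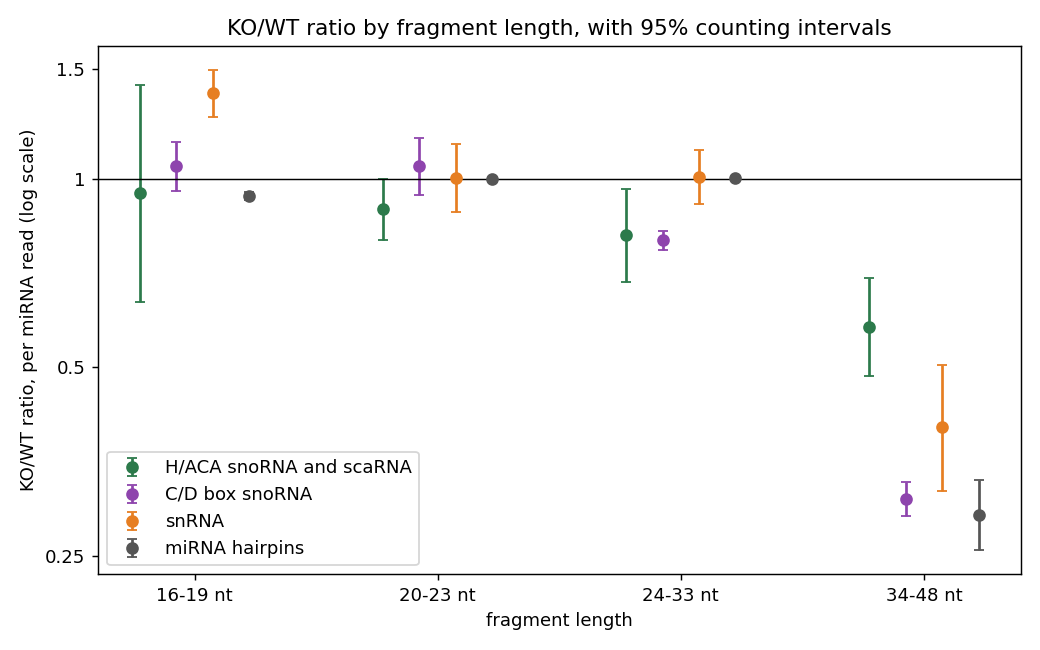
KO/WT ratio per miRNA read (vertical axis, log scale) in 4 ranges of fragment length (horizontal axis) for H/ACA snoRNAs and scaRNAs, C/D box snoRNAs, snRNAs and miRNA hairpins; bars are 95% intervals of counting error. All 4 classes are lowest at 34-48 nt, where H/ACA snoRNAs and scaRNAs are at 0.580 and C/D box snoRNAs at 0.308.

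By kind of end, C/D-ended scaRNAs had a ratio of 0.667 (0.578 to 0.769) and ACA-ended genes 0.877 (0.793 to 0.970), and the first was 0.760 times the second (0.638 to 0.906). Over all lengths, C/D-ended scaRNAs and C/D box snoRNAs had ratios whose quotient was 0.997 (0.861 to 1.15). Length by length they differed more. At 34-48 nt their ratios were 0.606 and 0.308, and at 24-33 nt 0.707 and 0.797. At 24-33 nt alone, where both kinds of end had reads, the quotient of C/D-ended to ACA-ended was 0.726 (0.502 to 1.05). Reads inside miRNA hairpins had a ratio of 0.833 (0.737 to 0.941) and the others 0.778 (0.698 to 0.866). The 20-23-nt reads outside miRNA hairpins had a ratio of 1.14 (0.881 to 1.47).

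Of the 88 genes, 10 had at least 50 reads specific to one of them, and 3 of the 10 were lower in KO by more than 1.5-fold: Scarna17, Gm25395 and Scarna9. None was higher by more than 1.5-fold. Scarna6 is not among the 10. With its sequences that run past the annotated end it would have 455 reads and a ratio of 0.456 (0.372 to 0.557). Among the 801 genes of all kinds with at least 50 reads, 43.2% were lower and 1.62% higher past that fold. Among the 564 of them that are no miRNA genes, 59.9% were lower and 1.42% higher. Among 55 C/D box snoRNA genes 50.9% were lower. The median ratio of the 10 was 0.855, that of the 801 was 0.747, and that of 55 C/D box snoRNA genes was 0.661. Scarna17 was at 108 specific reads per 1000000 miRNA reads in WT and at 69.1 in KO, a ratio of 0.639 (0.526 to 0.774). Gm25395 had a ratio of 0.657 (0.466 to 0.920) and Scarna9 of 0.493 (0.268 to 0.876). The remaining genes of the 10 lay within 1.5-fold. They included genes of mostly 20-23-nt products and, in Snora52 and Scarna10, genes of mostly longer ones. Mir1839 was at 138 in WT and 116 in KO per 1000000 miRNA reads, a ratio of 0.840 (0.717 to 0.984), and its 5′ arm had 0.804 (0.677 to 0.956) beside 1.05 (0.689 to 1.59) for its 3′ arm. Scarna3a had 86 specific reads in WT and 64 in KO, a ratio of 0.733 (0.522 to 1.02), and Scarna3b 51 and 48, a ratio of 0.927 (0.612 to 1.40). Intervals of Snora41, with a ratio of 1.13 (0.693 to 1.87), Snora16a, with 1.40 (0.880 to 2.26), Snora52, with 0.985 (0.579 to 1.68), and Scarna10, with 0.870 (0.548 to 1.38), all held 1. The intervals do not show that these genes were alike in WT and KO.

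**Figure D5:**
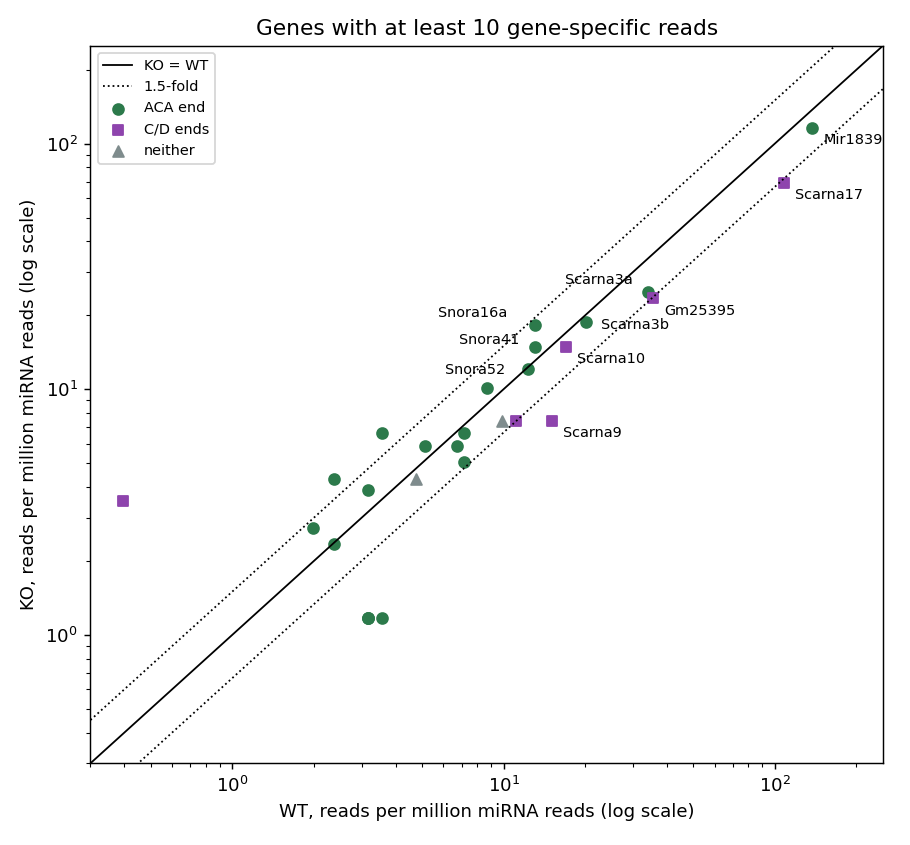
Gene-specific reads per 1000000 miRNA reads in WT (horizontal axis, log scale) and KO (vertical axis, log scale) for each gene with at least 10 such reads, marked by the kind of transcript end; the solid line is equality and the dotted lines 1.5-fold. Scarna17, Gm25395 and Scarna9, all with C/D ends, are the genes of at least 50 reads below the lower dotted line, and Gm22009 is the point with 1 read in WT and 9 in KO.

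The genes that make and carry H/ACA RNAs gave few reads. Of 16 in the annotation 15 had reads, 127 in WT and 88 in KO in all, and Dkc1 had none. Only Terc, the telomerase RNA, which ends in an H/ACA domain, passed 50 reads. It held 78 of the 127 reads in WT and 54 of the 88 in KO, a ratio of 0.682 (0.473 to 0.977). Among miRNAs, miR-202, known from the gonad, was at 5037 reads in WT and 5466 in KO. miR-295, of the germ cell and stem cell cluster miR-290, was at 1045 and 1428, a ratio of 1.35, and the liver miRNA miR-122 at 16 and 1. The part of such differences between the pools in the values above was not tested.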

How the data were processed

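Small RNA of 20 pooled testes per genotype was read once for WT and once for KO (TruSeq small RNA libraries, MiSeq, single end). The authors clipped the adaptor and deposited the read count of each distinct sequence, 11 to 48 nt long; these deposited read counts have no replicates. Per the labels the authors' build was mm9, and the deposited sequences carry no coordinates, so sequences of 16-48 nt were matched without mismatch, sense only, to 141767 GENCODE M21 transcripts (GRCm38) in Python 3.11.15 with numba 0.67.0. Mature miRNAs were from RefSeq (GRCm38.p6) and folds from RNAfold 2.7.2. KO/WT ratios are per miRNA read, with exact conditional 95% intervals, and shares have Wilson intervals (scipy 1.17.1). Genes were compared on reads matching 1 of the 88 only. Genes were named if among the 12 with most reads, among the 5 highest or 5 lowest ratios of genes with at least 100 reads, or with at least 50 reads of 20-23 nt; others named were chosen after their values were seen. Members and lists were chosen with earlier results of these data known. Ratio intervals and the matching were checked on simulated data. The alternatives tried were other scaling totals, length limits, filters, end tolerances and genes left out. The division by transcript ends, the ends near ACA or CTGA, the arms of the hairpins, the added bases and the setting without Scarna17 were chosen after seeing the data.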

Additional observations from a re-analysis of the deposited data

Results flagged for a closer look

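The largest signal in sequences that the counts above leave out came from Scarna6. Sequences that matched up to the last annotated base and then carried 1 more base, a T, numbered 277 in WT and 120 in KO, 397 in all, against 28 and 19 reads of Scarna6 inside the annotation. Their KO/WT ratio was 0.427 (0.342 to 0.531). The leading one, with 263 and 113 reads, is shown with the added base in capitals.
Scarna6: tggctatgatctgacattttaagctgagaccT
Whether the T is genomic or was added was not tested, since no genome was used here. Gm25395 had 12 reads (9 in WT and 3 in KO) of each of 2 such sequences that ran 1 base past its end.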

How the results depend on the processing

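No paired analysis was possible because each genotype had 1 library. The KO/WT ratio of all fragments (0.801) turned to 1.20 when scaled to C/D box snoRNA fragments. It was 0.933 scaled to all reads, 0.924 with each sequence counted once and 0.676 for sequences matching no gene outside the set. The ratio at 20-23 nt (0.894) was 1.04, 1.34, 1.01 and 1.19 under all reads, C/D box scaling, single counting and no outside gene, and 1.14 outside miRNA hairpins. The 3′ share, WT then KO, was 13.4% and 16.8% at the exact end, 44.8% and 47.4% within 5 nt, 40.1% and 44.5% by sequence, 46.2% and 47.3% without Mir1839 and 58.4% and 60.7% outside hairpins. The 5′ share was 8.07% and 7.47% at the exact end, 18.2% and 15.3% by sequence, 19.2% and 15.8% without Mir1839 and 24.4% and 20.6% outside hairpins. The 3 lower genes became 1 with at least 200 reads, by all reads or at 2-fold, and 0 by C/D box scaling; higher genes became 1 with at least 20 reads or by all reads and 2 by C/D box scaling. The cause was not tested, apart from the smaller number of genes at 200 reads. In 20 other settings a value moved by less than its interval or a count by less than 1.5 times. Depth limits the genes: 24 of the 53 with reads had fewer than 10.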

Other observations

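Sequences that left the annotated transcript in their last 3 bases or fewer, by running past its end or by carrying other bases there, numbered 372 in WT and 207 in KO over 26 genes. Without Scarna6 they were 89 and 82, a ratio of 0.908 (0.664 to 1.24). In Snora7a, Snora41, Snora36b and Mir1839 the leading one carried a T after the fifth last annotated base. Snora7a had 14 and 9 reads of it, as many in WT and KO together as there were 20-23-nt reads of Snora7a that stopped at or before the last base of ACA (23). Snora41 had 4 and 8, Snora36b 3 and 1, and Mir1839 1 and 2. The first pair is shown with the base in capitals.
Snora7a: tgattggaagacactctgcaacT
Snora41: ggaggattatgtgtgacagacT
Snora17, which had no read inside its annotation, had 1 read in WT and 4 in KO of a 25-nt sequence with an A past its last base. With only A added, genes other than Scarna6 had 12 reads in WT and 20 in KO, a ratio of 1.64 (0.764 to 3.68).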
